A study of Mus musculus with 41 samples.

Results

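The 10 genes described here encode CC chemokines of the mouse chromosome 11 cluster, and are not necessarily all of its genes. They were taken by symbol from the table of counts, in which they are 10 of 43346 genes, and all 10 passed the filter on low counts. RNA from the diaphysis of the tibia of 41 mice was sequenced in bulk, with 12 young mice, 13 old + vehicle-treated mice and 16 old + AP-treated mice. All mice, the young ones included, carried the INK-ATTAC transgene on a C57BL/6 background, in which a fragment of the promoter of p16Ink4a drives a caspase that the drug AP20187 (AP) activates. By the labels the young mice were 6 to 12 months old, whereas the study's text gives a single age at the low end of that range, and the old mice received vehicle or AP at 10 mg per kg for 4 months from the age of 20 months. The labels give no vehicle or AP treatment for the young mice, so that age and a course of treatment cannot be told apart in comparisons with them. The bones had been centrifuged to remove marrow before RNA was extracted. In bulk RNA of this kind, a change in the number of cells that express a gene and a change in its RNA per cell cannot be told apart.

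CC chemokines are small secreted proteins that attract leukocytes through G protein-coupled receptors named Ccr, and they take their name from a pair of adjacent cysteines. Ccl2, Ccl7 and Ccl12 act mainly on Ccr2 of monocytes, Ccl8 of the mouse acts on Ccr8, and Ccl11 (eotaxin) acts on Ccr3 of eosinophils. Ccl3, Ccl4 and Ccl5 attract monocytes and T cells, Ccl6 and Ccl9 bind Ccr1, and several members, Ccl2 among them, are known parts of the secretory phenotype of senescent cells. In bone, Ccl2, Ccl3, Ccl5 and Ccl9 have been studied as signals that attract osteoclast precursors.

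The genes form 2 stretches on chromosome 11 (GRCm38). Ccl2 (82035571 to 82037453), Ccl7 (82045712 to 82047525), Ccl11 (82057823 to 82062955), Ccl12 (82101845 to 82103400) and Ccl8 (82115185 to 82116799) lie within 81229 bases, all on the plus strand. After 1408978 bases follow Ccl5 (83525778 to 83530518), Ccl9 (83572919 to 83578636), Ccl6 (83587882 to 83593087) and Ccl3 (83647844 to 83649355) on the minus strand, and Ccl4 (83662584 to 83664683) on the plus strand, within 138906 bases. In the GENCODE M21 annotation, which gives the same coordinates, the longest transcript of each gene has 3 or 4 exons. Ccl6 overlaps E230016K23Rik, which held 2157 counts over all mice beside 194312 for Ccl6, and Ccl2 overlaps Gm17268, which held 0.

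The bases just upstream of Ccl8, Ccl12 and Ccl3 are shown because Ccl8 and Ccl3 were higher in both old groups, while Ccl12, the neighbour of Ccl8, varied with Ccl8 from mouse to mouse but was not called. They are the 150 bases before the transcription start given by RefSeq (GRCm38.p6), read 5′ to 3′ on the strand of the gene, with TATAAA in capitals. The RefSeq start of Ccl3 lies 23 bases upstream of the GENCODE one. The table of promoters used here held 5 of the 10 genes, and Ccl2, Ccl7, Ccl11, Ccl5 and Ccl4 are named only.
Ccl8, chr11:82115035-82115184, plus strand: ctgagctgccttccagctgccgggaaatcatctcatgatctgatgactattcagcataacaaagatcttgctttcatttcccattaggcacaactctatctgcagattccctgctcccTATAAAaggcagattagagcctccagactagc
Ccl12, chr11:82101695-82101844, plus strand: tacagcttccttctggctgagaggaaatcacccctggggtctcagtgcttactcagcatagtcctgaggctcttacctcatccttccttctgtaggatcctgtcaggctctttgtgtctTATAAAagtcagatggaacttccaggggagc
Ccl3, chr11:83649379-83649528, minus strand: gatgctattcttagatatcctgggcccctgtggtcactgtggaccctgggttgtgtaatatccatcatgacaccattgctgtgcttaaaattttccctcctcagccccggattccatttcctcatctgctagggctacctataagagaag

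TATAAA stood 32 bases before the start of Ccl8 and 31 bases before the start of Ccl12, on the strand of the gene. Within 250 bases of the start and on both strands, it was found in 12.4% of 32851 promoters in the table. TGANTCA, the core of the AP-1 motif (6.75% of promoters), and GGGNNNNNCC, a loose form of the NF-kB motif (45.8%), had 0 matches upstream of Ccl8, Ccl12, Ccl3 and Ccl6 in this window, and TATAAA had 0 upstream of Ccl3 and Ccl6. Upstream of Ccl9 there were 3 matches to TATAAA on either strand, of which 2 overlapped each other, 1 to TGANTCA and 1 to GGGNNNNNCC. In global alignments of the 250 bases, Ccl8 and Ccl12 were identical in 57.5% of columns, and the other pairs of the 5 genes in 48.1% to 54.2%.

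Total counts ranged from 37028959 to 75942717 per mouse (median 47774880), and even the most alike mice of a group differed by 33 times the variance expected from counting alone, so that each mouse was used as 1 replicate. Markers of osteoblasts summed to 3894 to 42940 CPM, a count scaled to the size of its library, those of osteocytes to 300.1 to 3451 CPM and those of skeletal muscle to 7648 to 118500 CPM. Of the genes in the marker lists, 0 had a median of 0 CPM in a group. No batch is given by the labels, and since the mouse numbers of young mice do not mix with those of old mice, age and a batch that followed it cannot be told apart. Old + vehicle-treated mouse JF16 and old + AP-treated mouse JF18 stood apart in single members, and results that rest on them are given with and without them.

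Per kilobase of gene model, Ccl6 was the most abundant member, with a median of 50.4 CPM per kb in young, 45.4 in old + vehicle-treated and 52.2 in old + AP-treated mice. In young mice the order by median CPM per kb went on with Ccl9 (19.1), Ccl5 (10.1), Ccl8 (4.61), Ccl11 (2.69), Ccl12 (2.47), Ccl3 (1.91), Ccl4 (1.53), Ccl2 (0.968) and Ccl7 (0.822). Ccl6 and Ccl9 each lay above the next gene in all 12 young mice with ranges that did not overlap, and from Ccl5 down each gene overlapped the next. In both old groups Ccl8 came second, at a median of 23 CPM per kb under vehicle and 20.2 under AP, with ranges that overlapped those of Ccl6 and Ccl9. It lay above Ccl9 in 8 of 13 vehicle-treated and 8 of 16 AP-treated mice, so that the order of this pair was not clear. Ccl2 and Ccl7, the most often cited of the monocyte attractants, were at the low end in every group. The level summed over the 10 genes in young mice was 170 ± 29.8 CPM (SD, n = 12), next to 199 ± 55.4 CPM under vehicle (SD, n = 13) and 216 ± 83.2 CPM under AP (SD, n = 16). Ccl8 made up 1.61% ± 1.01 (SD, n = 12) of that sum in young mice, 6.70% ± 3.22 (SD, n = 13) under vehicle and 5.43% ± 2.53 (SD, n = 16) under AP.

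**Figure D1:**
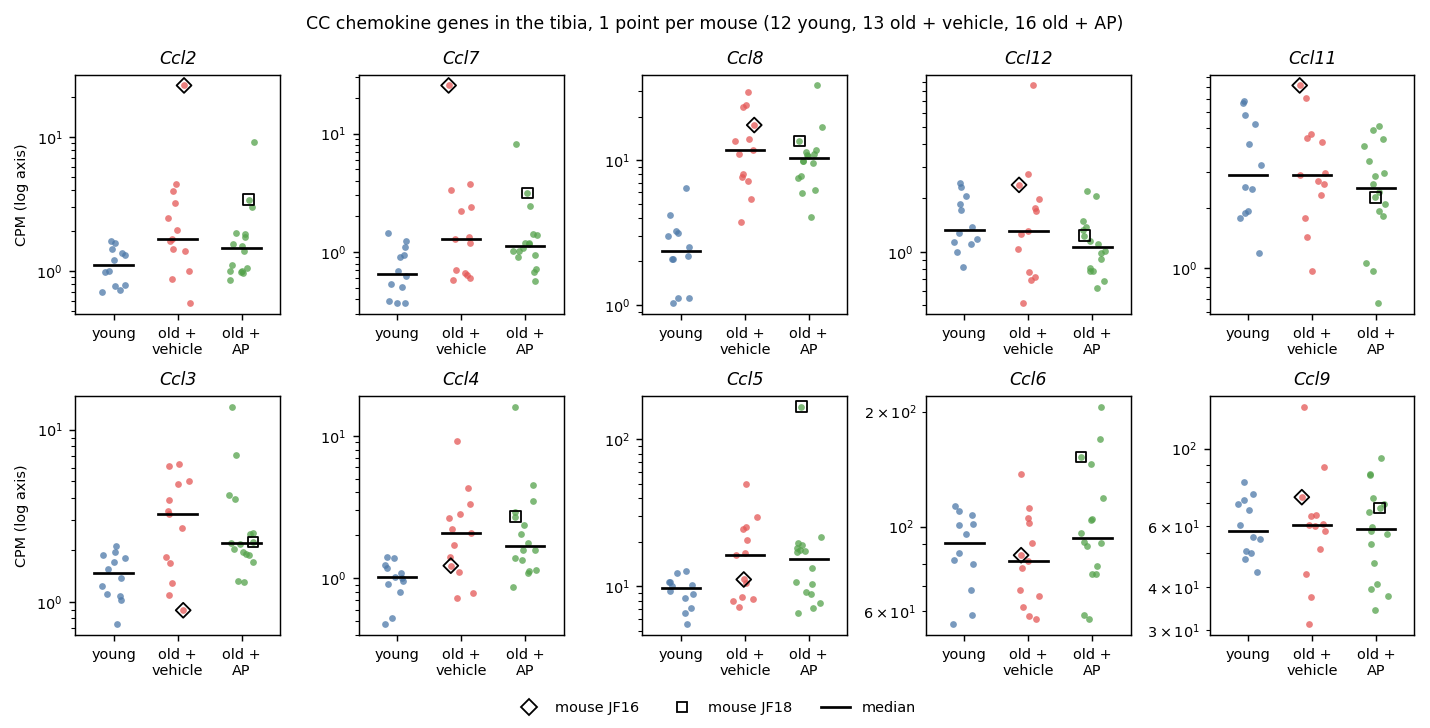
CPM of each of the 10 genes in each mouse on log axes, by group, with the group median as a line, mouse JF16 as an open diamond and mouse JF18 as an open square. Most old mice lie above all young mice for Ccl8, JF16 stands apart for Ccl2 and Ccl7 (24.3 and 25.5 CPM), JF18 for Ccl5 (167 CPM), and the groups of Ccl6, Ccl9, Ccl11 and Ccl12 overlap.

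Old + vehicle-treated mice were compared with young mice to ask which of the genes differ between old and young bone. Of the 10 genes, 5 were called higher (Ccl8, Ccl7, Ccl2, Ccl4 and Ccl3) and 0 lower, where a call needs a log2 fold change beyond 0.5 and, in edgeR's quasi-likelihood test, a p under 0.05 after Benjamini-Hochberg adjustment. Of all 19292 genes tested, 4.3% were called higher. The median log2 fold change was 1.06 over the 10 genes and 0.01 over all genes tested. Without JF16, 3 of the 10 were called (Ccl8, Ccl3 and Ccl4), and the calls of Ccl2 and Ccl7 were lost. Without JF18, which changes only the spread in this comparison, Ccl5 joined the 5 genes.

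Ccl8 was the member with the largest change. Its level ran from 1.03 to 6.41 CPM in young mice (median 2.36), from 3.72 to 29.7 CPM under vehicle (median 11.8) and from 4.07 to 32.8 CPM under AP (median 10.3). The groups overlapped at their edges only, since 11 of 13 vehicle-treated and 13 of 16 AP-treated mice lay above the highest young mouse, JF38. Against the same young mice, the log2 fold change of Ccl8 was 2.35 under vehicle (standard error 0.32, adjusted p = 3.15e-06) and 2.07 under AP (standard error 0.31, adjusted p = 1.11e-05). When any 1 mouse was left out it stayed between 2.20 and 2.55 under vehicle and between 1.88 and 2.27 under AP. The receptor gene Ccr8 was read at a median of 0.0683 CPM in young, 0.160 in old + vehicle-treated and 0.246 CPM in old + AP-treated mice, and its log2 fold change from young mice was 1.54 under AP, which was called (adjusted p = 0.0153), and 1.14 under vehicle, which was not (adjusted p = 0.0915).

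Ccl2 and Ccl7, neighbours at the start of the cluster, had low levels and a long upper tail. The level of Ccl2 ran from 0.703 to 1.67 CPM in young mice (median 1.10), from 0.574 to 24.3 CPM under vehicle (median 1.72) and from 0.862 to 9.12 CPM under AP (median 1.47). That of Ccl7 ran from 0.369 to 1.44 CPM in young mice (median 0.659), from 0.586 to 25.5 CPM under vehicle (median 1.28) and from 0.571 to 8.23 CPM under AP (median 1.13). The highest value of both genes was that of JF16, the next was that of old + AP-treated mouse JF10, and all groups overlapped, with 8 of 13 vehicle-treated mice above the highest young mouse for Ccl2 and 5 of 13 for Ccl7. Under vehicle, the log2 fold change from young mice was 1.74 for Ccl2 (standard error 0.46, adjusted p = 0.00572) and 2.16 for Ccl7 (standard error 0.54, adjusted p = 0.00355). Without JF16 it was 0.87 for Ccl2 (standard error 0.34, adjusted p = 0.0690) and 1.04 for Ccl7 (standard error 0.39, adjusted p = 0.0594), and neither was called.

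In JF16, 5 of 14 acute inflammatory genes also had their highest level of all mice, with Cxcl1 at 11.9 CPM (median of the vehicle group 0.206) and Ptgs2, which encodes the prostaglandin synthase COX-2, at 23.2 CPM (median 0.990). Another 3 of the 14, Tnf, Lcn2 and Vcam1, had their lowest level of the 41 mice there. The same mouse had the lowest sum of neutrophil markers (4931 CPM, vehicle median 15250), with all 10 markers among the 2 lowest values of the 41 mice, and the lowest sum of T and NK cell markers (43.4 CPM, vehicle median 103). Also lowest there were the sums of inflammatory monocyte (685 CPM, vehicle median 1548), B cell (88.1 CPM, median 165) and erythroid markers (2031 CPM, median 5936). Skeletal muscle markers summed to 95870 CPM in JF16, rank 3 of the 41 mice (vehicle median 66950). Its macrophage markers summed to 881 CPM, which was also the vehicle median, and it ranked 40 of 41 for Ccl3. Summed markers of marrow stroma and fibroblasts were highest in JF16 among vehicle-treated mice (3868 CPM, median 2622) and in JF10 among AP-treated mice (4523 CPM, median 2263), the mice with the highest Ccl2 and Ccl7 of these groups. The genes of this list did not move as one in JF16. Col3a1 was at 1823 CPM (vehicle median 314), whereas Cxcl12 was the lowest of the 41 mice (570 CPM, vehicle median 1111) and Lepr had rank 39. The part of these differences in the levels of Ccl2 and Ccl7 was not tested.

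Ccl3 and Ccl4, inflammatory chemokines of macrophages that lie next to each other, changed together. The level of Ccl3 ran from 0.739 to 2.12 CPM in young mice (median 1.46), from 0.892 to 6.34 CPM under vehicle (median 3.26) and from 1.30 to 13.6 CPM under AP (median 2.18). That of Ccl4 ran from 0.472 to 1.41 CPM in young mice (median 1.01), from 0.725 to 9.16 CPM under vehicle (median 2.08) and from 0.868 to 16.1 CPM under AP (median 1.68). The groups overlapped, but 8 of 13 vehicle-treated and 9 of 16 AP-treated mice lay above the highest young mouse for Ccl3, and 9 of 13 and 10 of 16 for Ccl4. Under vehicle the log2 fold change was 1.16 for Ccl3 (standard error 0.34, adjusted p = 0.0134) and 1.37 for Ccl4 (standard error 0.40, adjusted p = 0.0139). Without JF16 both were called, at 1.24 and 1.43, while without old + vehicle-treated mouse JF8, which had the highest Ccl4 of its group, Ccl4 was at 1.02 (adjusted p = 0.0527) and missed the threshold.

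Ccl5, which T cells, NK cells and platelets are known to hold, spread widely in the old mice. Its level ran from 5.52 to 12.8 CPM in young mice (median 9.71), from 7.22 to 49.8 CPM under vehicle (median 16.4) and from 6.56 to 167 CPM under AP (median 15.3). The highest value, that of JF18, was followed by 49.8 CPM in old + vehicle-treated mouse JF23, and 7 of 13 vehicle-treated and 9 of 16 AP-treated mice lay above all young mice. Against young mice the log2 fold change under vehicle was 0.96 (standard error 0.41, adjusted p = 0.0940), and without JF18 it was 0.96 again (standard error 0.26, adjusted p = 0.00727). Under AP it was 1.31 (standard error 0.40, adjusted p = 0.0183) with all mice and 0.53 (standard error 0.25, adjusted p = 0.147) without JF18. In the model of all 3 groups Ccl5 was thus called under vehicle only without this mouse and under AP only with it.

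In JF18 the 11 genes of the T and NK cell list summed to 618 CPM, against a range of 43.4 to 167 CPM under vehicle and a median of 108 CPM under AP, and 7 of the 11 had their highest level there (Cd8a reached 158 CPM, against a median of 5.70 under AP). The 7 were Nkg7 and markers of T cells, while the NK cell genes Ncr1 (0.349 CPM, the lowest of the 41 mice) and Klrb1c (3.15 CPM, rank 37) were low. Its osteocyte markers summed to 300.1 CPM (median under AP 1509), as did those of old + AP-treated mouse JF19, which had 17.8 CPM of Ccl5. The part of these markers in the level of Ccl5 in JF18 was not tested.

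Ccl6 and Ccl9, the ligands of Ccr1 that made up most of the summed level, differed little between young and old + vehicle-treated mice. The level of Ccl6 ran from 55.5 to 113.5 CPM in young mice, from 57.2 to 137 CPM under vehicle and from 57.2 to 206 CPM under AP, and that of Ccl9 from 44.1 to 80.1, from 31.2 to 132 and from 34.3 to 94.1 CPM. All ranges overlapped broadly. Under vehicle the log2 fold change was -0.06 for Ccl6 (standard error 0.17, adjusted p = 0.858) and 0.07 for Ccl9 (standard error 0.17, adjusted p = 0.822). Under AP, also against young mice, it was 0.28 for Ccl6 (standard error 0.17, adjusted p = 0.241) and -0.01 for Ccl9 (standard error 0.16, adjusted p = 0.986).

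Ccl11 and Ccl12 lie between the genes that changed, and neither passed the test. The level of Ccl11 ran from 1.18 to 6.80 CPM in young mice, from 0.962 to 8.17 CPM under vehicle and from 0.666 to 5.14 CPM under AP, with overlapping groups. Its log2 fold change was -0.03 under vehicle (standard error 0.32, adjusted p = 0.959) and -0.42 under AP (standard error 0.30, adjusted p = 0.348). The level of Ccl12 ran from 0.825 to 2.43 CPM in young mice (median 1.33), from 0.514 to 8.57 CPM under vehicle (median 1.31) and from 0.627 to 2.20 CPM under AP (median 1.06). Its highest value was that of old + vehicle-treated mouse JF7, followed by 2.72 CPM in JF14. For Ccl12 it was 0.36 under vehicle (standard error 0.31, adjusted p = 0.443), where it was -0.12 without JF7, and -0.39 under AP (standard error 0.29, adjusted p = 0.365).

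Old + AP-treated mice were compared with old + vehicle-treated mice to ask whether the drug, given to remove cells with an active p16Ink4a promoter, changed these genes. Of the 10 genes, 0 were called by edgeR's quasi-likelihood test or by DESeq2, and of all genes tested 0.0726% were called. Of the 2 senescence markers Cdkn2a (p16Ink4a) and Cdkn1a (p21), 0 were called here by either method, so that a loss of such cells was not seen in these markers. The median log2 fold change was -0.17 over the 10 genes and 0.00 over all genes. At an unadjusted p under 0.05 there were 4, of which Ccl12 (-0.76, standard error 0.29, adjusted p = 0.112), Ccl2 (-0.88, standard error 0.41, adjusted p = 0.178) and Ccl7 (-1.0, standard error 0.47, adjusted p = 0.185) were lower under AP and Ccl6 (0.34, standard error 0.16, adjusted p = 0.195) was higher. For Ccl8 the log2 fold change was -0.27 (standard error 0.28), for Ccl3 0.01 (standard error 0.31), for Ccl4 0.16 (standard error 0.36), for Ccl11 -0.39 (standard error 0.30) and for Ccl9 -0.07 (standard error 0.16).

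The values of Ccl2, Ccl7, Ccl12 and Ccl5 in this comparison turned on single mice. Without JF16 the log2 fold change was -0.02 for Ccl2 (standard error 0.31, adjusted p = 0.980) and 0.12 for Ccl7 (standard error 0.36, adjusted p = 0.875). Without JF10, the AP-treated mouse with the highest levels of both, Ccl2 was called lower under AP, at -1.26 (adjusted p = 0.0466), and Ccl7 was at -1.43 (adjusted p = 0.0516). The medians of the groups lay closer together, at 1.72 and 1.47 CPM for Ccl2 and at 1.28 and 1.13 CPM for Ccl7. Without JF7, Ccl12 was at -0.27 (adjusted p = 0.434). The log2 fold change of Ccl5 was 0.36 (standard error 0.38, adjusted p = 0.562) with all mice and -0.43 (standard error 0.24, adjusted p = 0.335) without JF18.

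Old + AP-treated mice were also compared with young mice, the same young mice as above. Of the 10 genes, 4 were called higher (Ccl8, Ccl4, Ccl5 and Ccl3) and 0 lower, while 3.73% of all genes tested were called higher. The median log2 fold change was 1.01 over the 10 genes and 0.02 over all genes tested. On the log2 scale Ccl3 differed by 1.17 (standard error 0.33, adjusted p = 0.0114) and Ccl4 by 1.52 (standard error 0.39, adjusted p = 0.00609), next to 1.16 and 1.37 under vehicle. Without JF24, the mouse with the highest Ccl3 and Ccl4, they were at 0.83 (adjusted p = 0.0356) and 1.0 (adjusted p = 0.0216) and were still called. For Ccl2 it was 0.86 (standard error 0.43, adjusted p = 0.164) and for Ccl7 1.16 (standard error 0.51, adjusted p = 0.105). Leaving out JF16, which belongs to neither group but enters the shared estimate of the spread, left Ccl7 at 1.16 with a standard error of 0.37 (adjusted p = 0.0255), so that it was called. Without JF18, 3 of the 10 were called, since Ccl5 was lost.

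**Figure D2:**
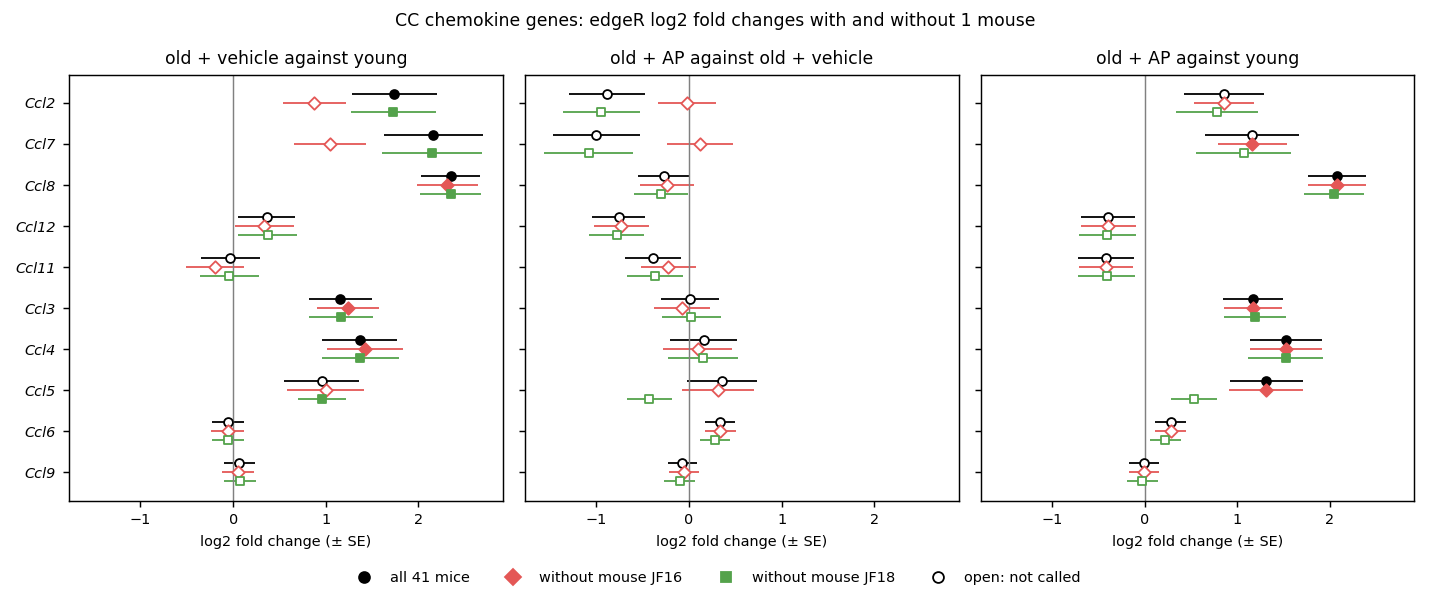
The log2 fold change of each gene with its standard error in the 3 comparisons, from the fit to all 41 mice (black circles), without JF16 (red diamonds) and without JF18 (green squares), with filled symbols for called genes. Ccl8, Ccl3 and Ccl4 are called against young mice in all 3 fits, the values of Ccl2 and Ccl7 move toward 0 without JF16 in the first 2 panels, and that of Ccl5 moves without JF18 in the 2 panels with AP-treated mice.

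Within the groups, levels of the genes varied together in part. For each pair, the correlation was computed over the 41 mice from log2 CPM after the group mean had been subtracted, with 100000 permutations of mice within groups and Benjamini-Hochberg adjustment over the 45 pairs. By Pearson's r, 15 of 45 pairs passed at an adjusted p under 0.05, and by Spearman's rho 16 did. Without JF16, 17 pairs passed. The smallest p these permutations can give is 1e-05, which corresponds to an adjusted p of 0.000225 where it was reached by 2 pairs.

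Ccl2 and Ccl7 were the most closely related pair, with r = 0.922 and rho = 0.824 (adjusted p = 0.000225 for both by permutation). The relation did not rest on JF16, since r was 0.875 without that mouse and 0.826 without JF16 and JF10, the mice farthest from the median of Ccl2. Within the groups r was 0.821 in young, 0.931 in old + vehicle-treated and 0.941 in old + AP-treated mice. Ccl3 and Ccl4 had r = 0.808 and rho = 0.830 (adjusted p = 0.000225 for both by permutation), and r = 0.725 without JF24 and JF29, the mice farthest from the median of Ccl3. In the groups it was 0.806, 0.687 and 0.911 in the same order. Ccl12 and Ccl8 had r = 0.659 and rho = 0.673 (adjusted p = 0.0003 and 0.00045 by permutation), with r = 0.579 without JF7 and JF22, and Ccl9 and Ccl6 had r = 0.628 and rho = 0.660 (adjusted p = 0.00045 and 0.000675 by permutation), with r = 0.729 without the same mice.

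These 4 pairs are neighbours among the 10 genes. Of the 8 neighbouring pairs within the stretches, 5 passed, the fifth being Ccl6 and Ccl3 (r = 0.567), while Ccl7 and Ccl11 (r = 0.368), Ccl11 and Ccl12 (r = -0.044) and Ccl5 and Ccl9 (r = 0.224) did not. Of the other 12 pairs within a stretch 6 passed, Ccl7 and Ccl2 with Ccl12, Ccl6 with Ccl4 and Ccl5, and Ccl9 with Ccl3 and Ccl4, with r from 0.468 to 0.574. Median r was 0.33 over the 10 pairs within the stretch from Ccl2 to Ccl8, 0.51 over the 10 pairs within that from Ccl5 to Ccl4, and 0.12 over the 25 pairs between them, of which 4, 7 and 4 passed. Without JF16 the medians were 0.26, 0.55 and 0.23. Position did not order all pairs, for Ccl11, between Ccl7 and Ccl12, had a negative r with 7 of the other 9 genes, of which that with Ccl6 passed (r = -0.388, rho = -0.402, adjusted p = 0.0434 and 0.0344 by permutation, r = -0.387 without JF25 and JF2). Across the stretches, Ccl9 was related to Ccl2 (r = 0.507, rho = 0.453, adjusted p = 0.0157 and 0.0209 by permutation) and Ccl7 (r = 0.460, rho = 0.427, adjusted p = 0.0296 and 0.0258 by permutation), with r = 0.541 and 0.467 without JF16 and JF10. In young mice alone r was -0.123 and -0.281 for these pairs. Ccl9 and Ccl12 had r = 0.549 (adjusted p = 0.00568 by permutation), but r = 0.301 without JF7 and JF22, and did not pass by rho (0.353, adjusted p = 0.0641 by permutation).

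The value of r between Ccl2 and Ccl3 turned on JF16. With all mice Ccl2 and Ccl3 had r = 0.112 and rho = 0.361 (adjusted p = 0.615 and 0.0714 by permutation), and without JF16 they had r = 0.418 (adjusted p = 0.0499 by permutation). In the old + vehicle-treated mice alone r rose from -0.008 to 0.708 once this mouse, with the highest Ccl2 and the lowest Ccl3 of its group, was left out. Ccl8 and Ccl5 passed by rho with all mice (0.415, adjusted p = 0.0303 by permutation) and by r only without JF16 (r = 0.367 with and 0.384 without, adjusted p = 0.0564 and 0.0457 by permutation), with r = 0.377 without JF28 and JF22.

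**Figure D3:**
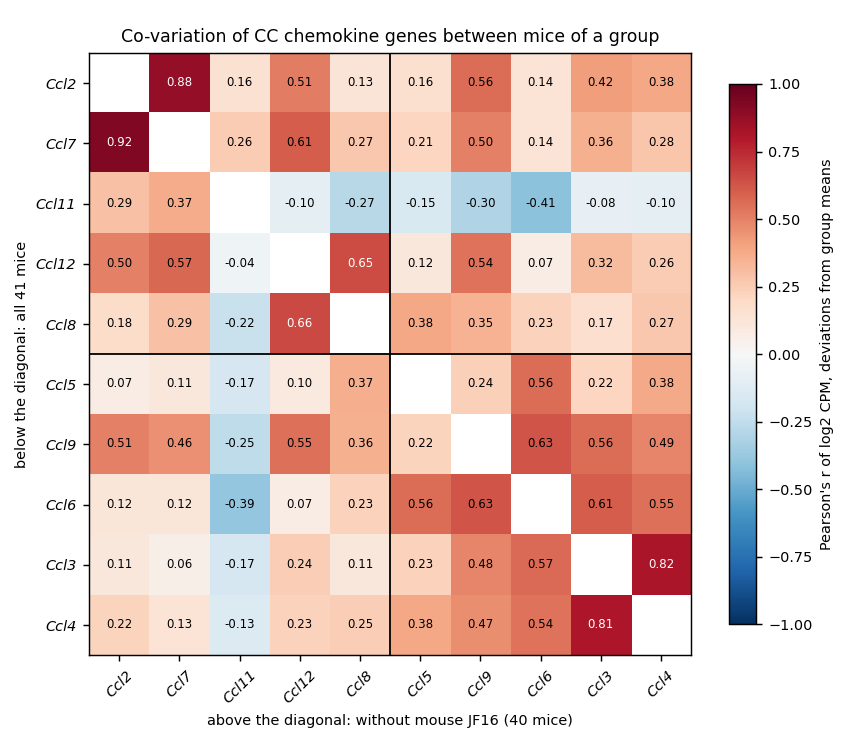
Pearson's r of log2 CPM between the genes after subtraction of group means, in chromosomal order, over all 41 mice below the diagonal and without JF16 above it, with black lines between the 2 stretches of the cluster. The darkest cells are Ccl2 with Ccl7 (0.92 with and 0.88 without JF16) and Ccl3 with Ccl4 (0.81 and 0.82), and Ccl11 has the only negative values.

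**Figure D4:**
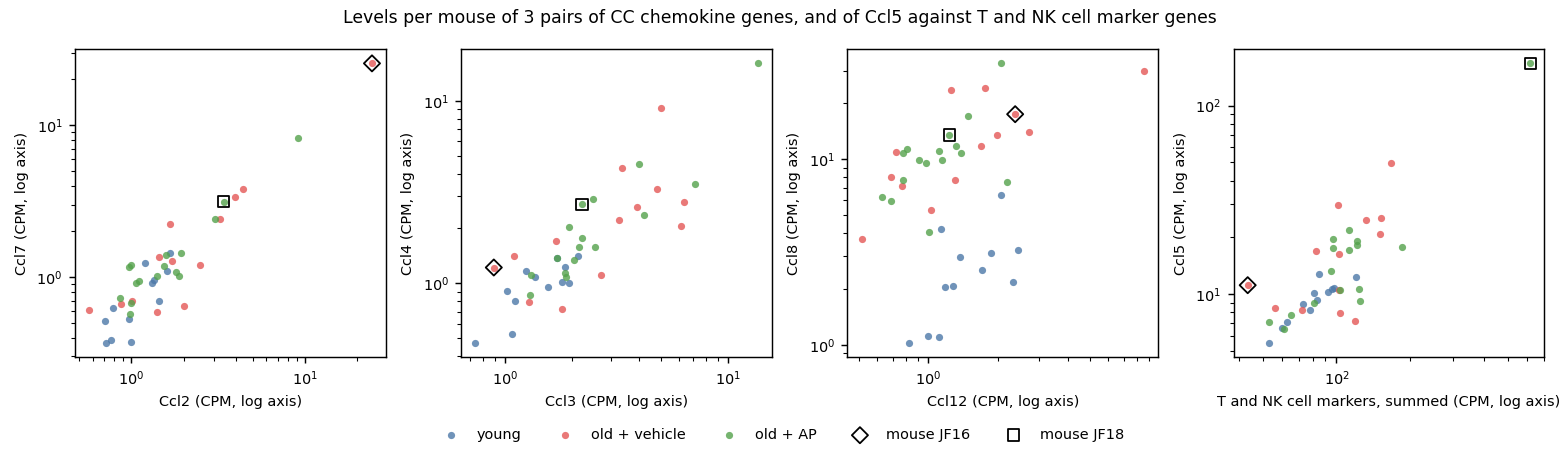
CPM of Ccl7 against Ccl2, Ccl4 against Ccl3, Ccl8 against Ccl12, and Ccl5 against the summed T and NK cell markers, 1 point per mouse on log axes and coloured by group. JF16 lies at the upper end of the line of Ccl2 and Ccl7 and at the low end for Ccl3, old mice lie above young mice at the same level of Ccl12 in the third panel, and JF18 lies at the upper right of the last panel (618 CPM of markers, 167 CPM of Ccl5).

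The relation of the genes to the senescence markers Cdkn2a, which encodes p16Ink4a, and Cdkn1a, which encodes p21, was tested in the same way over 20 pairs. With Cdkn2a 0 of 10 genes passed, and the highest r was that of Ccl4 (r = 0.382, rho = 0.155, adjusted p = 0.153 and 0.593 by permutation). With Cdkn1a 1 of 10 passed, Ccl6, and its relation was negative (r = -0.640, rho = -0.597, adjusted p = 0.0012 and 0.0016 by permutation). It was r = -0.670 without JF16, -0.490 without JF19 and JF27, the mice farthest from the median of Cdkn1a, -0.578 in young mice, -0.837 in old + AP-treated mice and -0.017 in old + vehicle-treated mice. For Ccl2, r with Cdkn1a in the old + vehicle-treated mice was 0.736 with JF16 and 0.247 without it.

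The genes whose levels followed each member most closely, out of the 15531 whose mean level reached 1 CPM, were found by rho over the 41 mice after subtraction of group means, and all points of a pair share their libraries. For Ccl5 they were Cd6 (rho = 0.919), Sh2d2a (0.898) and Lck (0.894), which encode a surface receptor and signalling proteins of T cells. For Ccl12 they were Cxcl16 (0.809), Ms4a7 (0.673) and Havcr2 (0.663), and for Ccl8 Cxcl16 (0.674), Havcr2 (0.670) and Folr4 (0.648), so that a chemokine gene, Cxcl16, headed both. For Ccl2 they were Sod3 (0.665), 5430435G22Rik (0.663) and Folr2 (0.660), the last a folate receptor of resident macrophages, and for Ccl7 C3ar1 (0.746) and Rpl37rt (0.652), the first a complement receptor of myeloid cells. Ccl9 went with Lgals3 (0.807), Apoc2 (0.807) and Ms4a6d (0.802), and Ccl6 with Neurl3 (0.879), Cd300a (0.843) and Slfn2 (0.834). Ccl3 went with Hcar2 (0.724), Rgs2 (0.671) and Ifit1 (0.663), and Ccl4 with Itgax (0.781), which encodes the integrin chain CD11c, Emr4 (0.730) and AF251705 (0.707). Ccl11 stood apart from the others here too, with Meox2 (0.853), Bnc2 (0.849) and Apod (0.824), which mesenchymal cells express. Without JF16 these values lay between 0.603 and 0.917.

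The members were also related to the summed markers of cell types, as rho over the same 41 mice. Ccl6 went with monocyte (0.716), T and NK cell (0.716) and neutrophil markers (0.636), Ccl5 with T and NK cell (0.640) and plasma cell markers (0.544), and Ccl9 with monocyte (0.576) and macrophage markers (0.533). Ccl6 was not tied to these lists alone, since rho was 0.585 with plasma cell, 0.570 with erythroid and 0.530 with eosinophil and mast cell markers. With skeletal muscle markers it was -0.571 for Ccl6 and -0.519 for Ccl9. Ccl12 went with macrophage markers (0.505), and Ccl2 (0.559) and Ccl7 (0.508) with markers of marrow stroma and fibroblasts more than with those of macrophages (0.258 and 0.322). For Ccl11 rho was 0.699 with skeletal muscle, 0.553 with adipocyte and 0.179 with stroma and fibroblast markers. It was negative with neutrophil (-0.614), erythroid (-0.606), T and NK cell (-0.594), eosinophil and mast cell (-0.568) and monocyte markers (-0.539). For Ccl8 the highest rho was 0.403, with macrophage markers. For Ccl3 the highest were 0.462 with plasma cell, 0.432 with monocyte and 0.422 with T and NK cell markers, next to 0.264 with macrophage markers. For Ccl4 they were 0.454 with monocyte and 0.448 with T and NK cell markers, next to 0.396 with macrophage markers. The medians of the macrophage sums were 899 CPM in young, 881 in old + vehicle-treated and 885 CPM in old + AP-treated mice, whereas those of the inflammatory monocyte sums were 1198, 1548 and 1712 CPM, those of the neutrophil sums 10980, 15250 and 15880 CPM those of the T and NK cell sums 82.1, 103 and 108 CPM and those of the stroma and fibroblast sums 5334, 2622 and 2263 CPM. Those of skeletal muscle were 39390, 66950 and 46280 CPM, those of osteoblasts 32350, 20160 and 16100 CPM, those of erythroid cells 9927, 5936 and 5650 CPM and those of B cells 306, 165 and 227 CPM. The part of these sums in the changes of the genes was not tested.

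Among the 15 receptor genes of the family, all of which were tested, 5 were called lower in old + vehicle-treated against young mice and 1 in old + AP-treated against young mice. Of all genes tested, 4.76% and 4.85% were called lower in these comparisons. Receptors called higher are not counted here, though Ccr8, as given above, and Ackr2 were called higher under AP. Ccr3, the receptor of Ccl11, was lower under vehicle (log2 fold change -1.08, adjusted p = 0.000867), as were Ccr7 (-1.02, adjusted p = 0.0180), Ccr1l1 (-0.88, adjusted p = 0.0333) and Ccr9 (-0.78, adjusted p = 0.0191). Ackr4, a scavenging receptor that clears chemokines, was lower in both old groups (-0.70 and -0.71, adjusted p = 0.00199 and 0.00131), and Ackr2, another, was called higher under AP (0.64, adjusted p = 0.0359), but not without JF18 (0.52, adjusted p = 0.0851), and was at 0.61 under vehicle (adjusted p = 0.0513). Ccr2, the receptor of Ccl2, Ccl7 and Ccl12, was at -0.05 under vehicle (adjusted p = 0.880) and 0.24 under AP (adjusted p = 0.310), and Ccr1, that of Ccl6 and Ccl9, at 0.25 (adjusted p = 0.257) and 0.29 (adjusted p = 0.153). Without JF16 Ccr1l1 was lost under vehicle, which left 4 lower, and Ccr3 joined under AP at -0.56 (adjusted p = 0.0495). Without JF18 there were 5 lower under vehicle and 3 lower under AP. Between the old groups 0 of 15 were called by edgeR or by DESeq2, with 4 at an unadjusted p under 0.05.

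The other CC chemokine genes of the genome gave 0 calls in any comparison by edgeR or by DESeq2, with 8 of 13 tested and with 0, 2 and 1 at an unadjusted p under 0.05 in vehicle against young, AP against vehicle and AP against young. Of 11 genes of NF-kB subunits and feedback, 1 was called in old + vehicle-treated against young mice, Bcl3 (0.57, adjusted p = 0.00955), and 0 in the other comparisons, where 5 each had an unadjusted p under 0.05. By DESeq2, Nfkbib, an inhibitor of NF-kB, was called lower under AP than under vehicle (-0.50, adjusted p = 0.0196), and is named after its value was seen. Of 14 acute inflammatory genes, 6 were called higher in old + vehicle-treated mice, among them Cxcl1 (2.83, adjusted p = 0.00455), Cxcl2 (2.41, adjusted p = 0.00105), Saa3 (2.19, adjusted p = 0.0218) and Ptgs2 (1.92, adjusted p = 0.0256). By DESeq2 there were 4, with Cxcl1 at 0.38 (adjusted p = 0.559) and Ptgs2 at 0.42 (adjusted p = 0.295). Without JF16 there were 2 higher, Cxcl2 (2.11, adjusted p = 0.00339) and Socs3 (0.79, adjusted p = 0.00339), and 1 lower, Cxcl5 (-0.90, adjusted p = 0.0117), named after its value was seen. In old + AP-treated against young mice 3 were higher, Saa3 (2.75, adjusted p = 0.00501), Cxcl2 (1.96, adjusted p = 0.00614) and Socs3 (0.74, adjusted p = 0.00661), and 4 without JF16, when Ptgs2 (1.40, adjusted p = 0.0215) joined. Between the old groups 0 of 14 were called by edgeR or by DESeq2, with 3 at an unadjusted p under 0.05.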

How the data were processed

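Per the labels, the authors' notes on processing name TopHat2 2.0.6, HTSeq and GRCm38, and raw read counts per gene were deposited for 41 mice, with 37 mitochondrial genes at 0 in every mouse. The annotation release and the strand setting are not given in the sources used here, so that overlapping genes are uncertain. In edgeR 4.0.16 (R 4.3.3), TMM normalization was applied, followed by CPM, a filter by expression (19292 genes) and a quasi-likelihood test in 1 model of the 3 groups, without covariates, with Benjamini-Hochberg adjustment over all genes tested (called at a log2 fold change beyond 0.5 with adjusted p under 0.05). Each mouse was 1 replicate, and p-values measure the spread between the mice, which no label ties to litters or batches. Correlations used log2 CPM with a prior count of 2. Alternatives were DESeq2 1.42.0, median-ratio size factors, no filter, robust dispersion, models of 2 groups, adjusted p alone, a prior count of 0.5 and each mouse left out. Leaving out JF16 with JF18, and the pathway lists without either mouse, were added after seeing the data. The fit was tested on simulated data. The 10 genes and all lists were chosen with earlier results of these data known. Named were all 10 genes, Cdkn2a, Cdkn1a, the 3 genes nearest to each, and up to 4 called genes with the largest change per pathway list and comparison. Some genes that this rule would name, and the counts that need them, are not reported here. Genes named for context (receptors of the members, genes high in JF16 or JF18) were chosen after their values were seen. Python 3.11.15 with NumPy 2.4.6 and SciPy 1.17.1 was used for the rest.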

Additional observations from a re-analysis of the deposited data

How the results depend on the processing

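With DESeq2, median-ratio size factors, no filter, robust dispersion or adjusted p alone, 5, 0 and 4 of the 10 genes were called in vehicle-treated against young, AP-treated against vehicle-treated and AP-treated against young mice, as in the fit reported. With each mouse left out in turn the counts ranged from 3 to 6, from 0 to 1 and from 3 to 5. With models of 2 groups they were 6, 0 and 5, with Ccl5 and Ccl7 added. Of 45 pairs of genes, 6 passed within the young mice alone, 3 within the old + vehicle-treated and 3 within the old + AP-treated mice, and of the 20 pairs with Cdkn2a and Cdkn1a 0, 0 and 1, where fewer mice entered each test.

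Values that changed sign were those of genes that were not called. Between the old groups, without JF16 and JF18, the log2 fold change was 0.029 for Ccl7, -0.458 for Ccl5 and -0.0419 for Ccl3, and with no filter it was -0.0007 for Ccl3. For AP-treated against young mice it was 0.0001 for Ccl9 by DESeq2 and by median-ratio size factors. With each mouse left out in turn, ranges that crossed 0 were -0.196 to 0.0865 for Ccl11, -0.120 to 0.447 for Ccl12 and -0.0688 to 0.128 for Ccl9 in vehicle-treated against young mice. Between the old groups they were -1.43 to 0.12 for Ccl7, -0.43 to 0.58 for Ccl5, -0.133 to 0.0636 for Ccl9, -0.33 to 0.13 for Ccl3 and -0.37 to 0.50 for Ccl4, and in AP-treated against young mice -0.0599 to 0.0380 for Ccl9. Beyond the mice named, the cause was not tested.

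Ccl2, Ccl7, Ccl12, Ccl3 and Ccl4 had group medians of 0.659 to 3.26 CPM, with as few as 17 counts in a mouse. No paired analysis was possible because the labels number the mice without tying mice of different groups to each other.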
